A study of Mus musculus with 9 samples.

Results

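NKp46, an activating receptor of natural killer (NK) cells and of some innate lymphoid cells, and 4 chains that carry signals for NK receptors were followed in innate lymphocytes from the small-intestinal epithelium of mice. The 5 genes were Ncr1 (NKp46), Fcer1g (FcR gamma), Cd247 (CD3 zeta), Tyrobp (DAP12) and Hcst (DAP10), taken by platform symbol from 19938 measured genes. Each had 1 row on the array, so no choice between rows was needed. Total RNA of 3 sorted populations (Ly49E+CD8aa+ cells, Ly49E+CD8aa- cells and Ly49E-CD8aa+ cells) was hybridised to Affymetrix Mouse Gene 1.0 ST arrays, with 3 arrays per population labelled as biological replicates. The labels name no treatment. All cells came from NOD-SCID mice aged 8 to 10 weeks, which lack mature T and B cells, and were sorted as CD3- CD45+ to a purity above 98%. Ly49E belongs to the Ly49 receptors, and CD8aa is a dimer of CD8 alpha chains. How many mice went into an array is unknown here, so p-values measure the spread between these arrays.

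NKp46 has a short tail without a signalling motif and depends on partner chains in the membrane. FcR gamma and CD3 zeta are such partners, and they carry immunoreceptor tyrosine-based activation motifs (ITAMs), which recruit the kinases Syk and ZAP-70 once phosphorylated. DAP12 carries an ITAM as well and serves activating Ly49 receptors and the NKG2C receptor with its partner CD94. DAP10 carries a motif that binds phosphoinositide 3-kinase instead, and it is the adaptor of NKG2D, which in the mouse can also use DAP12. All 4 adaptors are shared by many receptors, and FcR gamma and DAP12 are used widely in myeloid cells too.

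The values were log2 expression levels after RMA, a method that corrects background, normalizes the arrays and summarises the probes of a transcript. A difference is the first-named population minus the second. A gene was called when its adjusted p, by limma with Benjamini-Hochberg adjustment over all 19938 genes, was under 0.05. The array medians ran from 5.76 to 5.82 and the 25th percentiles from 4.40 to 4.47. The sort marker Klra5 (Ly49E) read 11.31 to 11.51 on Ly49E+CD8aa+ arrays, 11.38 to 11.50 on Ly49E+CD8aa- arrays and 5.48 to 7.31 on Ly49E-CD8aa+ arrays, and Ptprc (CD45) was at 11.74 to 11.92 on all arrays. Cd8a, which encodes the CD8 alpha chain, read 12.51 to 12.62 on Ly49E+CD8aa+ arrays, 11.25 to 11.50 on Ly49E+CD8aa- arrays and 12.51 to 12.64 on Ly49E-CD8aa+ arrays, so its transcript was lower but still high in the population sorted as CD8aa- (log2 difference 1.13 for Ly49E+CD8aa+ minus Ly49E+CD8aa-, limma adjusted p = 0.000113). Cd8b1, the CD8 beta chain gene, read 5.26 to 5.31, 8.11 to 8.54 and 5.15 to 5.40 in the same order and was thus higher in Ly49E+CD8aa- (-3.06 for Ly49E+CD8aa+ minus Ly49E+CD8aa-, limma adjusted p = 9.93e-07). Every comparison of CD8aa- with CD8aa+ cells rests on populations that differ in these ways. Summed enterocyte markers were high in each population, with log2 sums of 12.63 to 13.19 on Ly49E+CD8aa+ arrays, 12.38 to 13.17 on Ly49E+CD8aa- arrays and 12.26 to 13.26 on Ly49E-CD8aa+ arrays, and 0 of 11 were called in any comparison (limma). Replicate 1 had the highest of these sums in each population, 13.17 to 13.26 against 12.26 to 12.71 on the other arrays. In RNA from sorted cells, fewer cells of a type and less RNA per cell cannot be told apart.

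Of the 5 genes, the receptor gene Ncr1 and the adaptor gene Hcst were higher in Ly49E+CD8aa- cells than in either CD8aa+ population, and the other 3 adaptor genes passed in no comparison. Hcst was 1.60-fold lower in Ly49E+CD8aa+ cells than in Ly49E+CD8aa- cells, and Fcer1g, Cd247 and Tyrobp lay within 1.15-fold in every comparison. Fcer1g (12.25 to 12.47) and Tyrobp (12.76 to 12.93) read near the top of the values, which reached 13.8. Whether the arrays fully resolve differences at such levels was not tested, so these small folds do not show equal RNA.

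**Figure D1:**
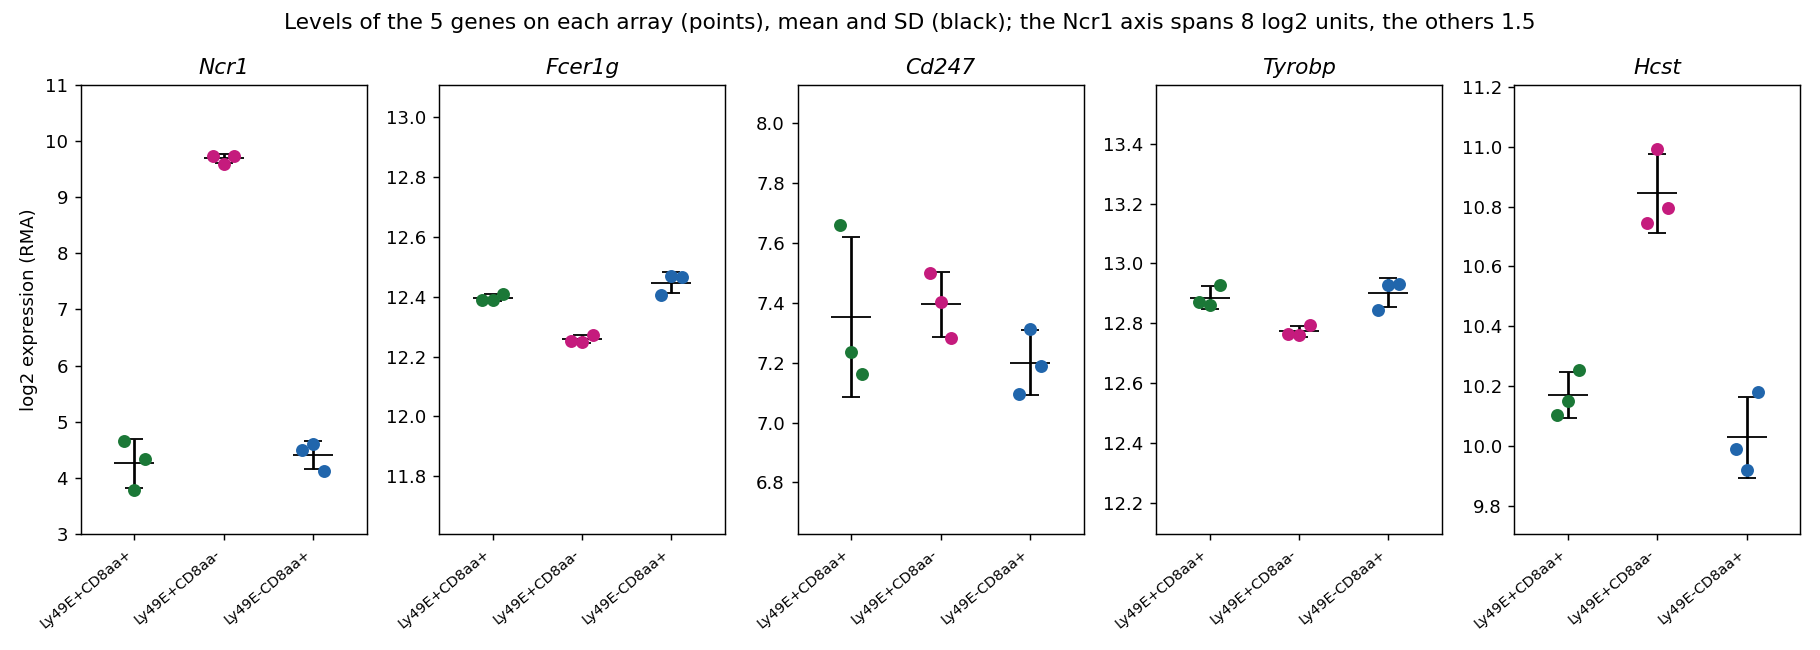
The vertical axes give log2 expression and each point is an array, with black marks for the mean and SD of 3 arrays per population. The Ncr1 axis spans more units than the others. Ncr1 and Hcst are highest on the Ly49E+CD8aa- arrays, where Fcer1g and Tyrobp are lowest, and the Cd247 populations overlap.

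Ncr1, the receptor, read 4.65, 3.78 and 4.34 in Ly49E+CD8aa+ cells, 9.74, 9.60 and 9.74 in Ly49E+CD8aa- cells, and 4.49, 4.60 and 4.13 in Ly49E-CD8aa+ cells. The 3 Ly49E+CD8aa- arrays stood far above the other 6, and the CD8aa+ populations overlapped. Ncr1 had a log2 difference of -5.44 between Ly49E+CD8aa+ and Ly49E+CD8aa- (SE 0.202, limma adjusted p = 1.02e-06) and of 5.29 between Ly49E+CD8aa- and Ly49E-CD8aa+ (SE 0.202, limma adjusted p = 1.42e-06). The 2 comparisons share the Ly49E+CD8aa- arrays. The CD8aa+ levels lie near the 25th percentiles of the arrays, and no detection calls were used, so they do not show whether the transcript was present there, and the sizes of these differences depend on that floor.

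Between the CD8aa+ populations, Ncr1 did not pass. Its log2 difference of Ly49E+CD8aa+ minus Ly49E-CD8aa+ was -0.15 with a 95% interval from -0.60 to 0.31. The sign turned, to 0.088, without Ly49E+CD8aa+ replicate 2, the lowest array. An exact permutation test of the F ratio over the 1680 divisions of the 9 arrays into 3 populations of 3 gave p = 0.025 for Ncr1, where the smallest p possible is 0.00357 (unadjusted, 1 of 7 such tests). Where the Ly49E+CD8aa- arrays stand far apart, this p depends on how the CD8aa+ arrays divide. It does not measure the size of the gap and does not rank the genes by it.

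Hcst, the adaptor of NKG2D, read 10.10, 10.15 and 10.25 in Ly49E+CD8aa+ cells, 10.74, 10.99 and 10.79 in Ly49E+CD8aa- cells, and 9.99, 9.92 and 10.18 in Ly49E-CD8aa+ cells. Every Ly49E+CD8aa- array lay above the other 6, and the CD8aa+ populations overlapped. Hcst had a log2 difference of -0.67 for Ly49E+CD8aa+ minus Ly49E+CD8aa- (SE 0.0944, limma adjusted p = 0.00635) and of 0.81 for Ly49E+CD8aa- minus Ly49E-CD8aa+ (SE 0.0944, limma adjusted p = 0.00177). It was well above the 75th percentiles of the arrays, 7.51 to 7.59, in all 3 populations. Without the replicate 1 arrays of all 3 populations, an alternative chosen after seeing the data, Hcst kept its differences, -0.69 and 0.84, but passed in neither comparison with 6 arrays left (limma adjusted p = 0.137 and 0.0795), while Ncr1 passed in both (limma adjusted p = 0.00224 and 0.0025). Within CD8aa+ cells the Hcst difference of Ly49E+CD8aa+ minus Ly49E-CD8aa+ was 0.14, with a 95% interval from -0.07 to 0.35 (exact permutation p = 0.0107 over the 3 populations, unadjusted).

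Fcer1g, a partner chain of NKp46, read 12.39, 12.39 and 12.41 in Ly49E+CD8aa+ cells, 12.25, 12.25 and 12.27 in Ly49E+CD8aa- cells, and 12.41, 12.47 and 12.47 in Ly49E-CD8aa+ cells. The Ly49E+CD8aa- arrays were the lowest 3 of the 9, the opposite order to Ncr1, but by a small amount. The Fcer1g difference was 0.14 for Ly49E+CD8aa+ minus Ly49E+CD8aa- (SE 0.0547, limma adjusted p = 0.444) and -0.19 for Ly49E+CD8aa- minus Ly49E-CD8aa+ (SE 0.0547, limma adjusted p = 0.186). With a variance prior that follows intensity, both passed (limma adjusted p = 0.0475 and 0.00762). The exact permutation test over the 3 populations gave p = 0.00714 for Fcer1g, unadjusted. The 95% interval of the larger difference ran from -0.31 to -0.07.

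Tyrobp, which encodes DAP12, read 12.87, 12.86 and 12.93 in Ly49E+CD8aa+ cells, 12.76, 12.76 and 12.79 in Ly49E+CD8aa- cells, and 12.85, 12.93 and 12.93 in Ly49E-CD8aa+ cells. As for Fcer1g, the Ly49E+CD8aa- arrays were the lowest and did not overlap with the rest. Its difference was 0.11 for Ly49E+CD8aa+ minus Ly49E+CD8aa- (95% interval -0.02 to 0.24, limma adjusted p = 0.625) and -0.13 for Ly49E+CD8aa- minus Ly49E-CD8aa+ (95% interval -0.26 to 0.0027, limma adjusted p = 0.491). The exact permutation test over the 3 populations gave p = 0.0357 for Tyrobp, unadjusted. After removal of the population means, Tyrobp and Fcer1g varied together over the 9 arrays (Pearson r = 0.94, a description over arrays that share their RNA and hybridisation).

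Cd247, the CD3 zeta chain and the other partner of NKp46, read 7.66, 7.24 and 7.16 in Ly49E+CD8aa+ cells, 7.50, 7.40 and 7.28 in Ly49E+CD8aa- cells, and 7.10, 7.31 and 7.19 in Ly49E-CD8aa+ cells. The populations overlapped, and replicate 1 of Ly49E+CD8aa+ was the highest array. The Cd247 difference was 0.15 for Ly49E+CD8aa+ minus Ly49E-CD8aa+, -0.04 for Ly49E+CD8aa+ minus Ly49E+CD8aa- and 0.20 for Ly49E+CD8aa- minus Ly49E-CD8aa+, with limma adjusted p of 1, 0.957 and 0.679. The 95% intervals of these differences reached from -0.34 to 0.49 in all, so differences inside these bounds could not be resolved with these arrays (exact permutation p = 0.429).

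**Figure D2:**
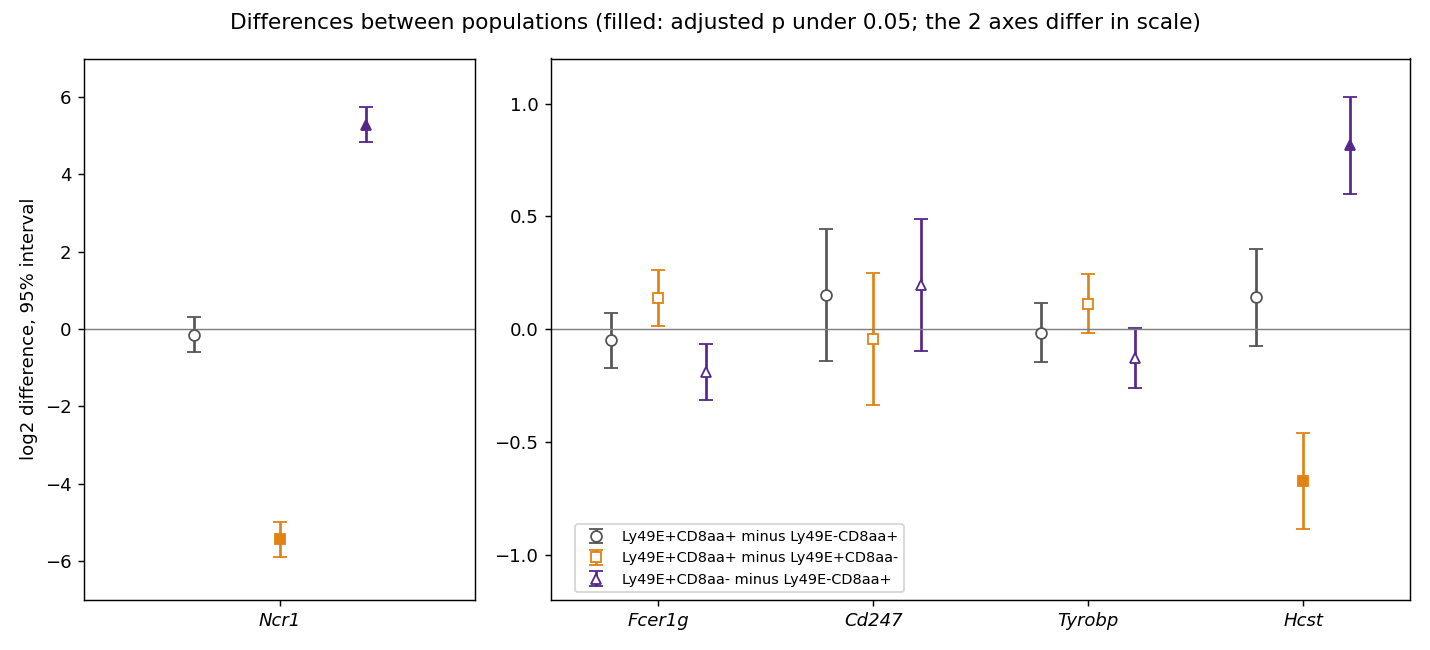
The vertical axes give log2 differences with 95% intervals from limma, with Ncr1 on a wider axis at the left and the 4 adaptor genes at the right. Filled symbols mark an adjusted p under 0.05. These are Ncr1 and Hcst in the comparisons that involve Ly49E+CD8aa-, at -5.44 and 5.29 for Ncr1 and at -0.67 and 0.81 for Hcst.

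In counts, the comparison within CD8aa+ cells, Ly49E+CD8aa+ minus Ly49E-CD8aa+, called 0 of the 5 genes. Limma called 0.13% of all genes there, 0.0201% higher and 0.11% lower, and 834 had an unadjusted p under 0.05. In the comparison within Ly49E+ cells, Ly49E+CD8aa+ minus Ly49E+CD8aa-, 2 of the 5 were lower and 0 higher, against 1.7% of all genes called, 1.22% lower and 0.476% higher. The comparison Ly49E+CD8aa- minus Ly49E-CD8aa+ had 2 higher and 0 lower, against 2.15% called, 1.35% higher and 0.802% lower. Over the 3 populations the moderated F test called Ncr1 (limma adjusted p = 1.34e-06) and Hcst (limma adjusted p = 0.00345), with 2.03% of all genes called. The arrays did not overlap in 4 of the 5 genes in each of the comparisons with Ly49E+CD8aa-, namely Ncr1 and Hcst in one direction and Fcer1g and Tyrobp in the other. The shares over all genes were 12.9% for Ly49E+CD8aa+ minus Ly49E+CD8aa- and 12.7% for Ly49E+CD8aa- minus Ly49E-CD8aa+, and for Ly49E+CD8aa+ minus Ly49E-CD8aa+ the share was 6.25%, with 0 of the 5. The 5 genes were chosen with earlier results of these data known, so their counts beside these shares are a description.

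Unequal change within the pairs of adaptors was tested on the difference of 2 rows on each array, which says nothing of which chain is more abundant. Tyrobp minus Hcst was 2.72 ± 0.0466 in Ly49E+CD8aa+ cells, 1.93 ± 0.140 in Ly49E+CD8aa- cells and 2.87 ± 0.130 in Ly49E-CD8aa+ cells (log2, SD, n = 3, exact permutation p = 0.00714, unadjusted). The DAP12 and DAP10 readings thus changed unequally between the populations, by 0.79 for Ly49E+CD8aa+ minus Ly49E+CD8aa- and by -0.94 for Ly49E+CD8aa- minus Ly49E-CD8aa+. Most of this is the difference of Hcst itself, -0.67 and 0.81, beside 0.11 and -0.13 for Tyrobp. The test is therefore not separate support for the calls of Hcst. In the RefSeq gene table these genes are neighbours on chromosome 7. For the chains that pair with NKp46, Fcer1g minus Cd247 was 5.04 ± 0.275, 4.86 ± 0.119 and 5.25 ± 0.0811 in the same order of populations, and unequal change did not pass (exact permutation p = 0.111, n = 3 per population).

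The promoters of Ncr1 and Hcst, the genes that were higher in Ly49E+CD8aa-, are shown for sequence context, from 250 bases before to 50 after the start in RefSeq (GRCm38.p6). They were searched on both strands for TGTGGT, a core of sites for Runx factors, GGAAGT, a core of sites for Ets factors, and GGTGTG, a core of sites for T-box factors, and matches are in capitals. The Ncr1 window lies at chr7:4337465-4337764 on the plus strand and the Hcst window at chr7:30419805-30420104 on the minus strand, each printed in the direction of transcription.
Ncr1: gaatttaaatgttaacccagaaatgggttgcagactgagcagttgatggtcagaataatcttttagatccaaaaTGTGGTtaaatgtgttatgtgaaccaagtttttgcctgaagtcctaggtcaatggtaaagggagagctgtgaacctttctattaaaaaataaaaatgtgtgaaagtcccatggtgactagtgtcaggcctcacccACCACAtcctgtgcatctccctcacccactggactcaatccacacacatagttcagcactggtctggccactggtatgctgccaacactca
Hcst: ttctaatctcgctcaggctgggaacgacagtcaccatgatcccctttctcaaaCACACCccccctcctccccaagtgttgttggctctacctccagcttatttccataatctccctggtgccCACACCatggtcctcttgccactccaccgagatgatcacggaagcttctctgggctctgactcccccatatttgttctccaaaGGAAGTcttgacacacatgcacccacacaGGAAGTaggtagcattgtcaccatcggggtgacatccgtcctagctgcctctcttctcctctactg

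The Ncr1 window held 2 matches to the Runx core and 0 to the others. The Hcst window held 2 matches to the Ets core, 2 to the T-box core and 0 to the Runx core. Among 32851 windows of this length, 16.8% held the Runx core, 23.8% the Ets core and 19.0% the T-box core, so each is common. Of the genes that did not pass, the Fcer1g window held 1 Runx match and the Cd247 window 2 Ets matches, and Tyrobp was not matched to a window. Ncr1 and Hcst had no core in common in these windows.

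The genes whose levels were most like those of Ncr1 over the 9 arrays were Ms4a4b (Pearson r = 0.9988), Tmem176b (0.9977), S100a4 (0.9971) and Csf2 (0.9968). Their Ly49E+CD8aa- means were 8.53 for Ms4a4b, a membrane protein, 9.95 for Tmem176b, 9.01 for S100a4, a calcium-binding protein, and 9.01 for Csf2, which encodes GM-CSF. Ms4a4b averaged 4.59 in each of the CD8aa+ populations, and the other genes averaged 5.05 to 5.56 there. For Hcst they were Tagap (0.971), Klrb1b (0.967), a receptor of the Nkrp1 family, Sidt1 (0.963) and Crtam (0.960), a receptor of nectin-like molecules. The points of these correlations fall in 3 populations and share arrays, and the other members have no such list because they were not called by the F test.

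Several receptors that use these adaptors were called as well. Klrk1, which encodes NKG2D, the receptor served by DAP10, read 4.74, 4.33 and 4.09 in Ly49E+CD8aa+ cells, 9.82, 9.71 and 10.01 in Ly49E+CD8aa- cells, and 4.79, 4.69 and 4.45 in Ly49E-CD8aa+ cells. The Ly49E+CD8aa- arrays stood apart from the rest as they did for Ncr1. The difference in Klrk1 was -5.46 for Ly49E+CD8aa+ minus Ly49E+CD8aa- (SE 0.163, limma adjusted p = 3.94e-07). As for Ncr1, the CD8aa+ levels lie near the 25th percentiles of the arrays, so the size of this difference depends on that floor and is not set against that of Hcst.

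Of 15 receptor genes fixed for DAP12 or DAP10, 13 were measured. In Ly49E+CD8aa+ minus Ly49E+CD8aa-, 5 were lower and 0 higher, with a list median of -0.07 beside 0.03 over all genes. Besides Klrk1 these were Klrc3 (-2.75), Klrd1, which encodes CD94 (-2.27), Klra8 (-1.66) and Klrc2, which encodes NKG2C (-1.51). Klrc3, Klra8 and Klrc2 belong to families of near-identical genes and are open to cross-hybridisation, and in Ly49E+CD8aa+ they averaged 2.89, 3.89 and 4.42. The 8 that did not pass include the myeloid receptors Trem1, Trem2, Trem3 and Clec5a, with means between 3.74 and 6.37 in all populations.

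Between the populations with a single marker, Ly49E+CD8aa- minus Ly49E-CD8aa+, Klrk1 (5.20), Klrd1 (3.16), Klrc3 (2.74), Klrc2 (1.66) and Klra8 (1.65) were higher and Siglech was lower, with a list median of 0.0024 beside -0.02 over all genes. Siglech, a lectin of plasmacytoid dendritic cells that signals through DAP12, read 5.46, 5.58 and 5.57 in Ly49E+CD8aa+ cells, 5.69, 5.68 and 5.57 in Ly49E+CD8aa- cells, and 7.84, 7.26 and 7.43 in Ly49E-CD8aa+ cells. It was the single gene of this list called for Ly49E+CD8aa+ minus Ly49E-CD8aa+ (-1.98, SE 0.131, limma adjusted p = 0.00099). Klrd1, at 0.89 in that comparison, did not pass (limma adjusted p = 0.924).

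**Figure D3:**
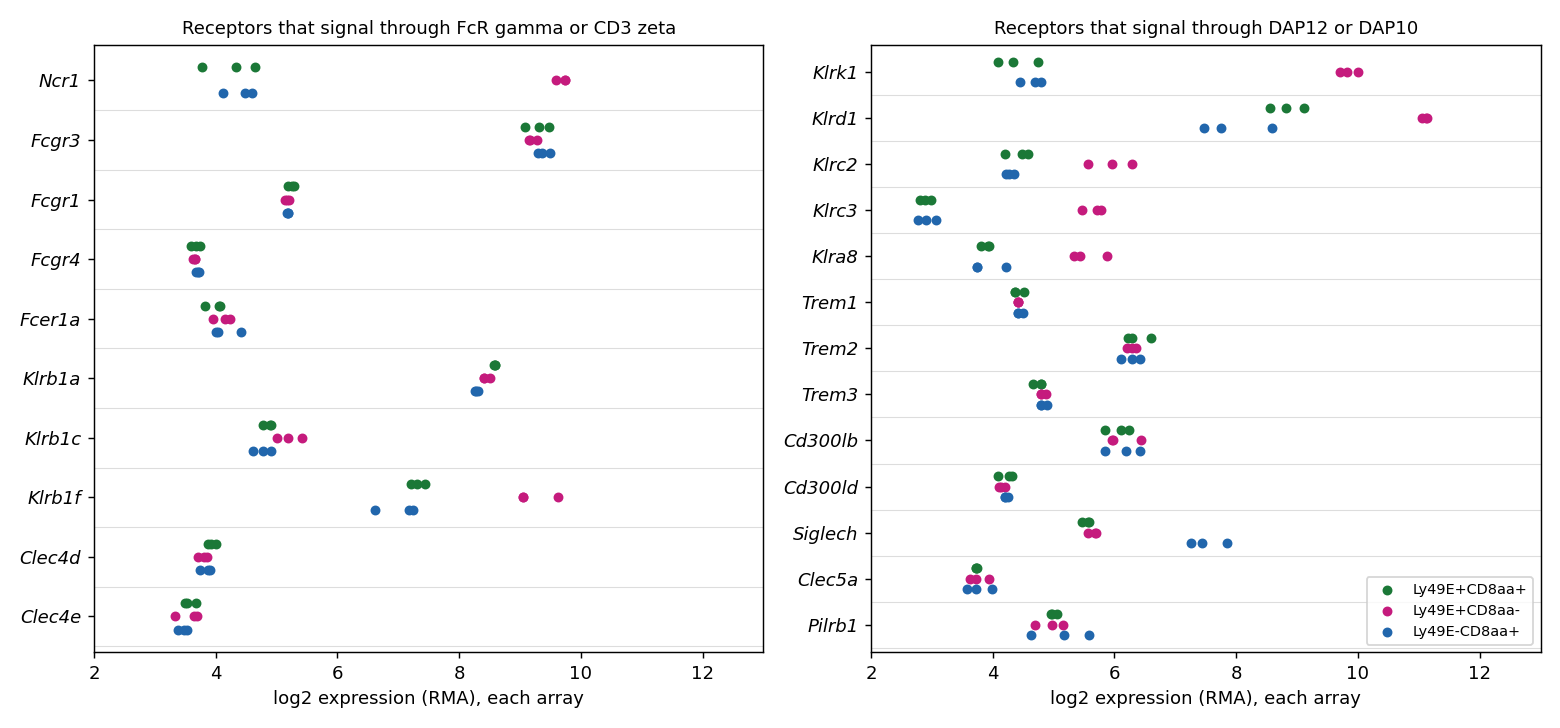
The horizontal axes give log2 expression and each point is an array, coloured by population, for receptors that signal through FcR gamma or CD3 zeta (left, with Ncr1) and through DAP12 or DAP10 (right). Ncr1, Klrb1f, Klrk1, Klrd1, Klrc2, Klrc3 and Klra8 lie higher on the Ly49E+CD8aa- arrays, and Siglech lies higher on the Ly49E-CD8aa+ arrays.

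Among receptors that signal through FcR gamma or CD3 zeta, apart from NKp46, 9 of 10 fixed genes were measured and 1 was called. Klrb1f, an activating receptor of the Nkrp1 family, read 7.31, 7.43 and 7.21 in Ly49E+CD8aa+ cells, 9.62, 9.04 and 9.05 in Ly49E+CD8aa- cells, and 6.62, 7.25 and 7.17 in Ly49E-CD8aa+ cells. Its arrays in Ly49E+CD8aa- lay above all others, with differences of -1.92 for Ly49E+CD8aa+ minus Ly49E+CD8aa- (limma adjusted p = 0.000885) and 2.23 for Ly49E+CD8aa- minus Ly49E-CD8aa+ (limma adjusted p = 0.000301). Fcgr3, the Fc receptor CD16, averaged 9.29 in Ly49E+CD8aa+ cells, 9.20 in Ly49E+CD8aa- cells and 9.39 in Ly49E-CD8aa+ cells and passed in no comparison. Klrb1c, the NK1.1 antigen in some strains, averaged 4.86, 5.20 and 4.76 in the same order and did not pass either.

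The other ITAM chains of the list are those of the T cell and B cell receptors. Cd3e, although the cells were sorted as CD3-, read 11.79, 11.71 and 11.74 in Ly49E+CD8aa+ cells, 11.23, 10.51 and 10.35 in Ly49E+CD8aa- cells, and 11.72, 11.57 and 11.73 in Ly49E-CD8aa+ cells. The Cd3e difference was 1.05 for Ly49E+CD8aa+ minus Ly49E+CD8aa- (SE 0.19, limma adjusted p = 0.0263), the opposite direction to Ncr1, and -0.98 for Ly49E+CD8aa- minus Ly49E-CD8aa+ (limma adjusted p = 0.0325). The median of the 5 chains was 0.21 for Ly49E+CD8aa+ minus Ly49E+CD8aa-, with 5 above 0, and -0.28 for Ly49E+CD8aa- minus Ly49E-CD8aa+, with 0 above 0, beside 0.03 and -0.02 over all genes. Cd3d, Cd3g, Cd79a and Cd79b passed in no comparison, and Cd3g averaged 12.93, 12.72 and 12.94 in the same order of populations.

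No kinase of the Src and Syk families passed, among 7 measured of 10 fixed. Syk averaged 8.16 in Ly49E+CD8aa+ cells, 7.94 in Ly49E+CD8aa- cells and 8.41 in Ly49E-CD8aa+ cells, and its difference of -0.48 for Ly49E+CD8aa- minus Ly49E-CD8aa+ missed the threshold (limma adjusted p = 0.0508). Zap70 averaged 9.07, 9.36 and 9.06 in the same order, with a difference of 0.30 (limma adjusted p = 0.26). Lck was not analysed here.

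Of 33 measured adaptors and effectors below the ITAM, 3 were higher and 1 lower for Ly49E+CD8aa+ minus Ly49E+CD8aa-. The lower gene was Sh2d1a, which encodes the adaptor SAP of SLAM family receptors (-2.88, SE 0.314, limma adjusted p = 0.00144), at 4.16, 4.05 and 3.77 in Ly49E+CD8aa+ cells, against 6.95, 7.57 and 6.10 in Ly49E+CD8aa- cells and 4.20, 3.69 and 3.89 in Ly49E-CD8aa+ cells. The higher genes were Pik3cb (0.62) and Pik3cd (0.52), catalytic subunits of phosphoinositide 3-kinase, and the adaptor gene Sh3bp2 (0.49). Between Ly49E+CD8aa- and Ly49E-CD8aa+ cells, Sh2d1a (2.95) and Lat (0.60), the scaffold downstream of ZAP-70, were higher, and Pik3cb (-0.83), Sh3bp2 (-0.62) and Pik3cd (-0.50) were lower. Within CD8aa+ cells, 0 of the 33 passed.

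Of 16 negative regulators, 1 passed in 1 comparison. Ptpn6, which encodes the phosphatase SHP-1, read 10.45, 10.09 and 10.20 in Ly49E+CD8aa+ cells, 10.40, 10.18 and 10.19 in Ly49E+CD8aa- cells, and 10.90, 10.64 and 10.89 in Ly49E-CD8aa+ cells. The Ly49E-CD8aa+ arrays were the highest, with a difference of -0.55 for Ly49E+CD8aa- minus Ly49E-CD8aa+ (limma adjusted p = 0.0453) and of -0.56 for Ly49E+CD8aa+ minus Ly49E-CD8aa+ (limma adjusted p = 0.306).

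Over all these signalling genes, 83 of 91 were measured. The comparison Ly49E+CD8aa+ minus Ly49E+CD8aa- had 4 higher and 7 lower (13.3%, against 1.7% of all genes). The comparison Ly49E+CD8aa- minus Ly49E-CD8aa+ had 8 higher and 6 lower (16.9%, against 2.15%), and Ly49E+CD8aa+ minus Ly49E-CD8aa+ had 0 higher and 1 lower (1.2%, against 0.13%). Receptor genes made up 6 of the 7 lower genes in the first of these comparisons. The lists were chosen with earlier results of these data known. The shares therefore do not test whether signalling genes differ more often than other genes.

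**Figure D4:**
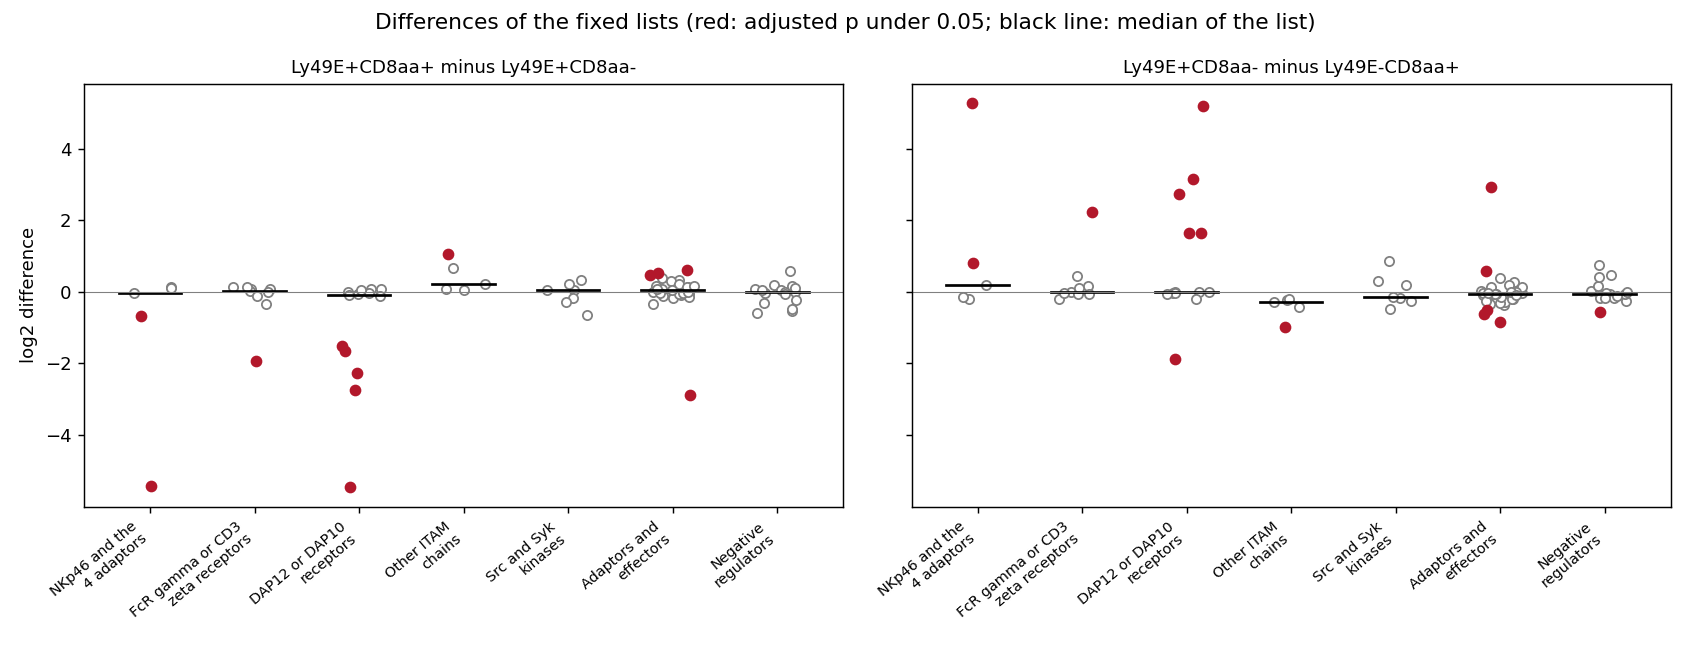
The vertical axis gives log2 differences and each point is a gene of a fixed list, red where the adjusted p was under 0.05, with a black line at the list's median. For Ly49E+CD8aa+ minus Ly49E+CD8aa- (left) and Ly49E+CD8aa- minus Ly49E-CD8aa+ (right), the red points farthest from 0 are Ncr1 and Klrk1. The other ITAM chains have medians of 0.21 (left) and -0.28 (right).

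Some markers of cells that also use FcR gamma and DAP12 moved between the populations. The summed dendritic cell markers (15 genes measured of 15) had log2 levels of 11.06 to 11.16 in Ly49E+CD8aa+, 11.18 to 11.35 in Ly49E+CD8aa- and 11.40 to 11.83 in Ly49E-CD8aa+. The summed macrophage and monocyte markers (15 measured of 16) were at 9.22 to 9.26, 8.98 to 9.06 and 9.52 to 9.93 in the same order. Of 15 dendritic cell markers 3, 3 and 2, and of 15 macrophage markers 5, 5 and 4, averaged below the 25th percentile of the arrays' genes. The sums add unlogged levels, so genes with high levels weigh most. Among dendritic cell markers, Itgax read 9.21 to 10.07 and Bst2 8.24 to 9.82 over the 9 arrays. Xcr1 read 3.91 to 4.51 over the 9 arrays. Clec9a read 3.78 to 4.02 in Ly49E+CD8aa+, 3.58 to 3.85 in Ly49E+CD8aa- and 4.29 to 4.66 in Ly49E-CD8aa+. Cd209d, in the same order, read 4.16 to 4.45, 4.11 to 4.31 and 5.73 to 6.66. Ly6d read 5.59 to 5.81, 5.51 to 5.62 and 6.76 to 7.16. Spib read 4.79 to 5.21, 4.91 to 5.10 and 6.02 to 6.74. Batf3 read 6.27 to 6.55, 6.81 to 7.47 and 6.13 to 6.57. For Ly49E+CD8aa- minus Ly49E-CD8aa+, limma called 6 of the 15 lower and 1, Batf3, higher, against 0.802% and 1.35% of all genes. For Ly49E+CD8aa+ minus Ly49E+CD8aa-, limma called 0 of the 15 dendritic cell markers, with a list median of -0.02. The macrophage sum was lowest in Ly49E+CD8aa- and highest in Ly49E-CD8aa+, the order of Fcer1g and Tyrobp. Within Ly49E-CD8aa+, replicate 1 had the highest sums and the lowest Fcer1g and Tyrobp. For Ly49E+CD8aa+ minus Ly49E+CD8aa-, limma called 0 of the 15 macrophage genes, with a list median of 0.0087. Cd68 had the largest difference there (0.78) and weighs heavily in that step of the sum. It read 7.45 to 7.54 in Ly49E+CD8aa+ and 6.60 to 6.79 in Ly49E+CD8aa-. Cybb, the phagocyte oxidase subunit, averaged 3.93, 4.02 and 6.41 and Mpeg1 5.63, 5.42 and 7.37. The macrophage genes Adgre1 and Csf1r had population means between 3.46 and 5.27. The part of such cells in the differences of Fcer1g, Tyrobp, Siglech and Ptpn6 was not tested.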

How the data were processed

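The deposited table held log2 values made with RMA, according to the submitters' processing notes, for each transcript cluster and array. That the scale is log2 follows from their range, 1.84 to 13.8. The version of RMA, the annotation and the build are not stated. Of 35556 rows, 21789 had 1 gene symbol, and the row of highest mean stood for each of 19938 genes, with no filter. Limma 3.58.1 in R 4.3.3 was fitted to the 9 arrays with a mean per population and no block (prior degrees of freedom 3.08, residual 6), with 2-sided tests. Exact permutation tests used the F ratio over the 3 populations. The fit was tested on simulated data. The members and lists were chosen with earlier results of these data known.

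Named genes were the 5 members, up to 4 called genes per signalling list and comparison, some fixed receptors, kinases and sort markers, up to 3 called genes per marker list, and, for members called by the F test, the 4 genes with the highest Pearson correlation. Trem1, Trem2, Trem3, Clec5a, Cd3d, Cd3g, Cd79a, Cd79b, Adgre1 and Csf1r were named after their values were seen. The same holds for Cd68, Itgax, Bst2, Clec9a, Xcr1, Cd209d, Ly6d, Spib, Batf3, Gzma, Itga2, Tbx21 and S1pr5. Marker lists of mast cells, granulocytes, stroma and enterocytes had 0 genes called by limma. The list of 4 sort markers held Klra5, Cd8a and Ptprc, and also Cd8b1, which is not part of the sort described. Of these 4, 1 was higher for Ly49E+CD8aa+ minus Ly49E-CD8aa+. For Ly49E+CD8aa+ minus Ly49E+CD8aa-, 1 was higher and 1, Cd8b1, lower. For Ly49E+CD8aa- minus Ly49E-CD8aa+, 2 were higher and 1 lower. The other lists are counted in the text. No scan dates were used. Alternatives were a fit to only the 6 arrays compared, filters on row means at the 25th percentile and the median, centring, a further quantile normalization, an intensity trend, robust moderation, the mean of rows, the replicate block, leaving out each array and, added after seeing the data, leaving out replicate 1 of every population.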

Additional observations from a re-analysis of the deposited data

How the results depend on the processing

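For each of the comparisons with Ly49E+CD8aa-, the call of Ncr1 held in all 19 alternatives and that of Hcst in 18 of 19. For Ly49E+CD8aa+ minus Ly49E+CD8aa-, Ncr1 ran from -5.63 to -5.20 and Hcst from -0.72 to -0.60, with limma adjusted p up to 0.00224 and 0.137. For Ly49E+CD8aa- minus Ly49E-CD8aa+, Ncr1 ran from 5.15 to 5.38 and Hcst from 0.74 to 0.89. Tyrobp was called in none of its alternatives (lowest limma adjusted p = 0.0963). With an intensity trend, Fcer1g passed at the same differences, 0.14 and -0.19, so that 1 member was higher for Ly49E+CD8aa+ minus Ly49E+CD8aa- and 1 lower for Ly49E+CD8aa- minus Ly49E-CD8aa+, and 3 members passed the F test in place of 2. Of the members that did not pass, leaving out 1 array turned the sign of Ncr1 (range -0.34 to 0.088) and Cd247 (-0.00031 to 0.25) for Ly49E+CD8aa+ minus Ly49E-CD8aa+, and of Cd247 (-0.20 to 0.052) for Ly49E+CD8aa+ minus Ly49E+CD8aa-. The replicate block changed no call of a member. Deviations from the population means correlated above 0.1 in 4 of 9 pairs of arrays with the same number, including all 3 pairs of replicate 1, and in 1 of 18 pairs with different numbers. The labels do not say whether equal numbers share a sort, and the main fit did not use the numbers as pairs. The replicate 1 arrays deviated together, and any deviation they share stays in the residual spread of that fit.

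The alternative without replicate 1 of every population leaves 6 arrays and was chosen after seeing the data. There Hcst was -0.69 for Ly49E+CD8aa+ minus Ly49E+CD8aa- and 0.84 for Ly49E+CD8aa- minus Ly49E-CD8aa+ without passing, so that 1 member was lower and 1 higher in these comparisons and 1 passed the F test, and Cd247 turned to -0.052 for Ly49E+CD8aa+ minus Ly49E-CD8aa+. Signalling genes were then 1 higher and 4 lower for Ly49E+CD8aa+ minus Ly49E+CD8aa-, and 3 lower for Ly49E+CD8aa- minus Ly49E-CD8aa+. Over all genes, 0 were higher and 4 lower for Ly49E+CD8aa+ minus Ly49E-CD8aa+, 20 higher and 101 lower for Ly49E+CD8aa+ minus Ly49E+CD8aa-, and 119 higher and 46 lower for Ly49E+CD8aa- minus Ly49E-CD8aa+.

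Other counts moved too. Without 1 array, the signalling genes called for Ly49E+CD8aa+ minus Ly49E-CD8aa+ were 0 to 1 higher, for Ly49E+CD8aa+ minus Ly49E+CD8aa- 2 to 3 higher, and for Ly49E+CD8aa- minus Ly49E-CD8aa+ 3 to 5 lower. With the median filter, which tests fewer genes, 3 signalling genes were lower for Ly49E+CD8aa+ minus Ly49E+CD8aa- in place of 7, and 4 higher for Ly49E+CD8aa- minus Ly49E-CD8aa+ in place of 8. With the 6 arrays of a comparison, signalling genes were 0 lower for Ly49E+CD8aa+ minus Ly49E-CD8aa+ and 3 lower for Ly49E+CD8aa- minus Ly49E-CD8aa+, in place of 1 and 6. Over all genes for Ly49E+CD8aa+ minus Ly49E-CD8aa+, limma called 4 higher and 22 lower, which became 0 and 0 with those 6 arrays, 11 lower with the median filter, 14 lower with the replicate block, and 1 to 4 higher and 4 to 28 lower without 1 array. For Ly49E+CD8aa+ minus Ly49E+CD8aa-, 95 higher became 62 with the 6 arrays and 55 to 87 without 1 array. For Ly49E+CD8aa- minus Ly49E-CD8aa+, 160 lower became 78 and 82 to 130. Apart from fewer genes or arrays in the fit, the cause was not tested. Values near the 25th percentiles of the arrays have no detection call.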

Other observations

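Some markers of conventional NK cells moved with Ncr1, which is itself on that list. Of 11 measured, 5 were lower and 1 higher for Ly49E+CD8aa+ minus Ly49E+CD8aa-, against 1.22% and 0.476% of all genes. For Ly49E+CD8aa- minus Ly49E-CD8aa+, 5 were higher and 1 lower, against 1.35% and 0.802%. Ncr1, Klrk1 and Klrd1, already described above, are among these genes. The same shares apply to the marker lists below, with 0.11% lower and 0.0201% higher for Ly49E+CD8aa+ minus Ly49E-CD8aa+. All these lists were chosen with earlier results of these data known, so their counts are a description. Klrb1c, Gzma, Itga2, Tbx21 and S1pr5 passed in no comparison. Klre1, a lectin receptor of NK cells, averaged 4.83 in Ly49E+CD8aa+ cells, 8.83 in Ly49E+CD8aa- cells and 4.54 in Ly49E-CD8aa+ cells, and the T-box factor gene Eomes averaged 4.32, 7.15 and 4.58. Prf1, which encodes perforin, went the other way, at 9.50, 8.92 and 9.68.

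Of 11 T cell markers, 2 were higher and 1 lower for Ly49E+CD8aa+ minus Ly49E+CD8aa-, and 1 was higher and 1 lower for Ly49E+CD8aa- minus Ly49E-CD8aa+. Cd28, a costimulatory receptor, averaged 4.50 in Ly49E+CD8aa+ cells, 7.04 in Ly49E+CD8aa- cells and 4.68 in Ly49E-CD8aa+ cells. Cd3e and Themis were the higher genes for Ly49E+CD8aa+ minus Ly49E+CD8aa-, opposite to Cd28. Themis (1.28) read 7.11 to 7.52 in Ly49E+CD8aa+, 5.54 to 6.63 in Ly49E+CD8aa- and 5.95 to 6.32 in Ly49E-CD8aa+. The summed T cell markers had log2 levels of 13.62 to 13.67, 13.17 to 13.37 and 13.57 to 13.62 in the same order. Of 9 measured B and plasma cell markers, 1 was lower for Ly49E+CD8aa+ minus Ly49E-CD8aa+, 1 was lower for Ly49E+CD8aa+ minus Ly49E+CD8aa-, and 1 was higher and 1 lower for Ly49E+CD8aa- minus Ly49E-CD8aa+. Of 3 measured erythroid markers, Alas2, a haem synthesis enzyme, was called, at 6.02 in Ly49E+CD8aa+ cells, 5.44 in Ly49E+CD8aa- cells and 5.93 in Ly49E-CD8aa+ cells.

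Dendritic cell markers had 4 lower of 15 for Ly49E+CD8aa+ minus Ly49E-CD8aa+, and 1 higher and 6 lower for Ly49E+CD8aa- minus Ly49E-CD8aa+. Macrophage and monocyte markers had 2 lower of 15 in each of these comparisons, and both lists had 0 called by limma for Ly49E+CD8aa+ minus Ly49E+CD8aa-.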
